A study of Homo sapiens with 18 samples.

Results

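The set described here holds 9 enzymes that make serine, run the mitochondrial one-carbon pathway or make proline. They were taken from the deposited counts by name: PHGDH, PSAT1 and PSPH for serine, SHMT2, MTHFD2, MTHFD1L and ALDH1L2 for mitochondrial folate, and PYCR1 and ALDH18A1 for proline. They are 9 of the 26485 genes counted, and all 9 were among the 12832 genes with a count scaled to library size (CPM) above 1 in 3 or more libraries. These members were chosen with earlier results of these data known, so counts of them beside the shares of all genes only describe. RNAseq was performed on SW620 cells, an established human colon cancer line, in 6 groups of 3 libraries. Cells had been transfected with a scramble siRNA or with siRNA against Lonp1 (siLonp1), the gene of a mitochondrial protease. They were kept at 37 °C (Ctrl), exposed to heat shock at 42 °C for 1 h (HS), or given the same heat shock and returned to 37 °C for 1 h (HS+REC). All groups share the line and the transfection. The methods list a pair of siRNAs against Lonp1 and do not say which was used for RNAseq, so silencing of Lonp1 and other actions of the siRNA cannot be told apart. The comparisons ask how silencing, heat shock and recovery change these transcripts, and whether silencing changes their response to heat.

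PHGDH, PSAT1 and PSPH act in turn to convert the glycolytic intermediate 3-phosphoglycerate into serine. In mitochondria SHMT2 splits serine into glycine and a carbon unit carried by folate, MTHFD2 oxidizes that unit, and MTHFD1L releases it as formate, which the cytosol uses to build purines and thymidylate. ALDH1L2 instead oxidizes the unit to carbon dioxide and yields NADPH. ALDH18A1 converts glutamate towards pyrroline-5-carboxylate, which PYCR1 reduces to proline. Several of these genes are known targets of ATF4, a transcription factor of the amino acid and mitochondrial stress responses, and high levels of the mitochondrial folate enzymes are a known feature of many proliferating cancer cells.

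With siLonp1, 6 of the 9 members were higher in the comparisons given below, and the 250 bases before the annotated start are shown for those that the RefSeq promoter table (GRCh38.p14) holds. It matched 5 of 9 members, PHGDH, PSAT1, MTHFD2, MTHFD1L and ALDH18A1. PSAT1 and MTHFD2 are printed as the pair that moved most alike and ALDH18A1 as the member that moved the other way. Of MTHFD1L only the stretch around a motif is shown. Both strands were searched for the C/EBP-ATF response element TGATGNAA bound by ATF4 with its partners, the E-box CACGTG bound by MYC and related factors, pairs of heat shock element units (GAANNTTC and TTCNNGAA) and the antioxidant response element TGACNNNGC, and no 2 matches overlapped in the members. Sequences run from 5′ to 3′ on the strand of the gene, with motif matches in capitals.
PSAT1, chr9:78296875-78297124, plus strand: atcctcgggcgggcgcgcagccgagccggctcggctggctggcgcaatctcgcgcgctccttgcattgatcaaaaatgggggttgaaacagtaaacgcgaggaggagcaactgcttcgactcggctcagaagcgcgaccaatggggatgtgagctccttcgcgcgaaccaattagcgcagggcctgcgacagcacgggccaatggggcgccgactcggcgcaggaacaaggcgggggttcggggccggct
MTHFD2, chr2:74198365-74198614, plus strand: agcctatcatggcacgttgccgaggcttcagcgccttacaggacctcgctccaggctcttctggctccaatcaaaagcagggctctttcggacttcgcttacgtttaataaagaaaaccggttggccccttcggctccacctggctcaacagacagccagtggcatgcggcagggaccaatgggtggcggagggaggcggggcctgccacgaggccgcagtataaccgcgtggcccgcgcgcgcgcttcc
ALDH18A1, chr10:95656712-95656961, minus strand: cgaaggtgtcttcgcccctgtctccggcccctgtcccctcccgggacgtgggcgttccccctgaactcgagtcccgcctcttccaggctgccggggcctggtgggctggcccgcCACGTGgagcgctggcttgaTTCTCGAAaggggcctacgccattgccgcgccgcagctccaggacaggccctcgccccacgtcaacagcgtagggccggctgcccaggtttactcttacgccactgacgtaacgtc
MTHFD1L, chr6:150866347-150866374, plus strand: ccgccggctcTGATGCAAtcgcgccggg
The windows of PHGDH, MTHFD2 and MTHFD1L lie inside the longer GENCODE positions of these genes given with them below, and 197 of the 250 bases of PHGDH are in GENCODE exons of the gene itself. The windows of PHGDH, PSAT1 and MTHFD2 held no match, which says nothing of other starts. The window of ALDH18A1 held TTCTCGAA 116 bases and CACGTG 136 bases before the start. MTHFD1L has 4 annotated starts, and TGATGCAA lay 129 bases before the first of them and 90 bases before the third, with a CACGTG upstream of it in both windows. Among all 35116 windows of the table, TGATGNAA was present in 3.14%, CACGTG in 6.34%, TTCNNGAA in 6.62%, GAANNTTC in 5.78% and TGACNNNGC in 10.9%. These matches describe letters and not binding.

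Library totals ranged from 30815860 to 47279297 counts, with a median of 40847024.5. LONP1 was lower in every siLonp1 library, at 221 ± 5.56 CPM (SD, n = 3) in Ctrl scramble and 20.4 ± 1.75 in Ctrl siLonp1, 214 ± 15.7 and 11.7 ± 0.154 in HS, and 218 ± 18.7 and 27.2 ± 1.64 in HS+REC. Of 9 markers of colon epithelium, EPCAM, KRT8, KRT18, VIL1 and CDH1 were at 84.4 CPM or more in every library, whereas CDX1 had 0 counts throughout and KRT20 lay between 0.248 and 1.25 CPM. LGR5 lay between 23.9 and 70.1 CPM and CDX2 between 9.97 and 30.6 CPM. Of 7 markers of other cell types, PTPRC, CD3E, COL1A2 and ALB had at most 5 counts in any library and PECAM1 at most 17, while CD68 and COL1A1 reached 18.1 and 34.6 CPM.

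Levels of the 9 transcripts can be compared per kilobase of transcript. SHMT2 was the highest, at 326 to 468 CPM per kb over the 18 libraries, above every value of the other members. PSAT1 (122 to 283 CPM per kb) and PYCR1 (159.8 to 194) came next and overlapped each other. PHGDH (72.6 to 133), MTHFD2 (59.3 to 121) and PSPH (53.7 to 132) overlapped one another, as did ALDH18A1 (49.5 to 62.0) and MTHFD1L (43.0 to 67.4). PHGDH and PSPH also overlapped PSAT1, and ALDH18A1 and MTHFD1L overlapped MTHFD2 and PSPH. ALDH1L2 lay below the rest, at 0.798 to 1.61 CPM per kb. Its 6631 counts over all libraries are fewer than the 36817 of KIAA1033 and the 8280 of C12orf45, which overlap it on the opposite strand. Libraries were stranded, but the strand setting of the counting is not given in the sources used here, so the values of ALDH1L2 are uncertain.

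With Lonp1 silenced, 6 of the 9 transcripts were higher in each condition: the serine enzymes PHGDH, PSAT1 and PSPH and the folate enzymes SHMT2, MTHFD2 and MTHFD1L. The increases ranged from 11.3% for MTHFD1L in HS+REC to 53.1% for MTHFD2 in HS. The test was edgeR's quasi-likelihood test with Benjamini-Hochberg adjustment over all genes tested, called adjusted p from here on, with a limit of 0.05 and no limit on the fold. By this test 26.3% of all genes were higher in Ctrl, 28.1% after HS and 26.8% in HS+REC. All 6 passed in each of the 3 conditions, as did 18.1% of all genes as higher and 16% as lower, and 3 members (PHGDH, PSAT1 and MTHFD2) did so when libraries were scaled by total counts only. ALDH18A1 was lower in HS and in HS+REC, where 26.7% and 27.3% of all genes were lower, and 0 of 9 members were lower in Ctrl (22.9% of all genes), also by DESeq2 and with 0 at an unadjusted p under 0.05. PYCR1 and ALDH1L2 passed in no condition. The median log2 difference of the members was 0.22 in Ctrl, 0.27 after HS and 0.27 in HS+REC, against 0.01, 0.00 and -0.00 over all genes. No member changed by more than 2-fold in any comparison. The marker sums of colon epithelium were also higher with siLonp1, at 8391 to 8746 CPM with scramble and 9229 to 9866 with siLonp1 in Ctrl and 8889.6 to 9319.9 and 10426 to 10889.8 in HS, but overlapped in HS+REC at 8006 to 9190.0 and 7940.4 to 9707. KRT8 and KRT18 made up most of these sums, and of the 8 markers tested of 9 listed 2 were higher and 2 lower in Ctrl, 5 and 2 in HS, and 2 and 3 in HS+REC. The sums of the other cell types were 19.1 to 21.8 and 23.4 to 25.8 CPM in Ctrl, 26.0 to 32.0 and 30.2 to 35.9 in HS, and 41.3 to 42.5 and 46.1 to 51.0 in HS+REC. Their part in the results was not tested. In bulk samples fewer cells of a type and less RNA per cell cannot be told apart.

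**Figure D1:**
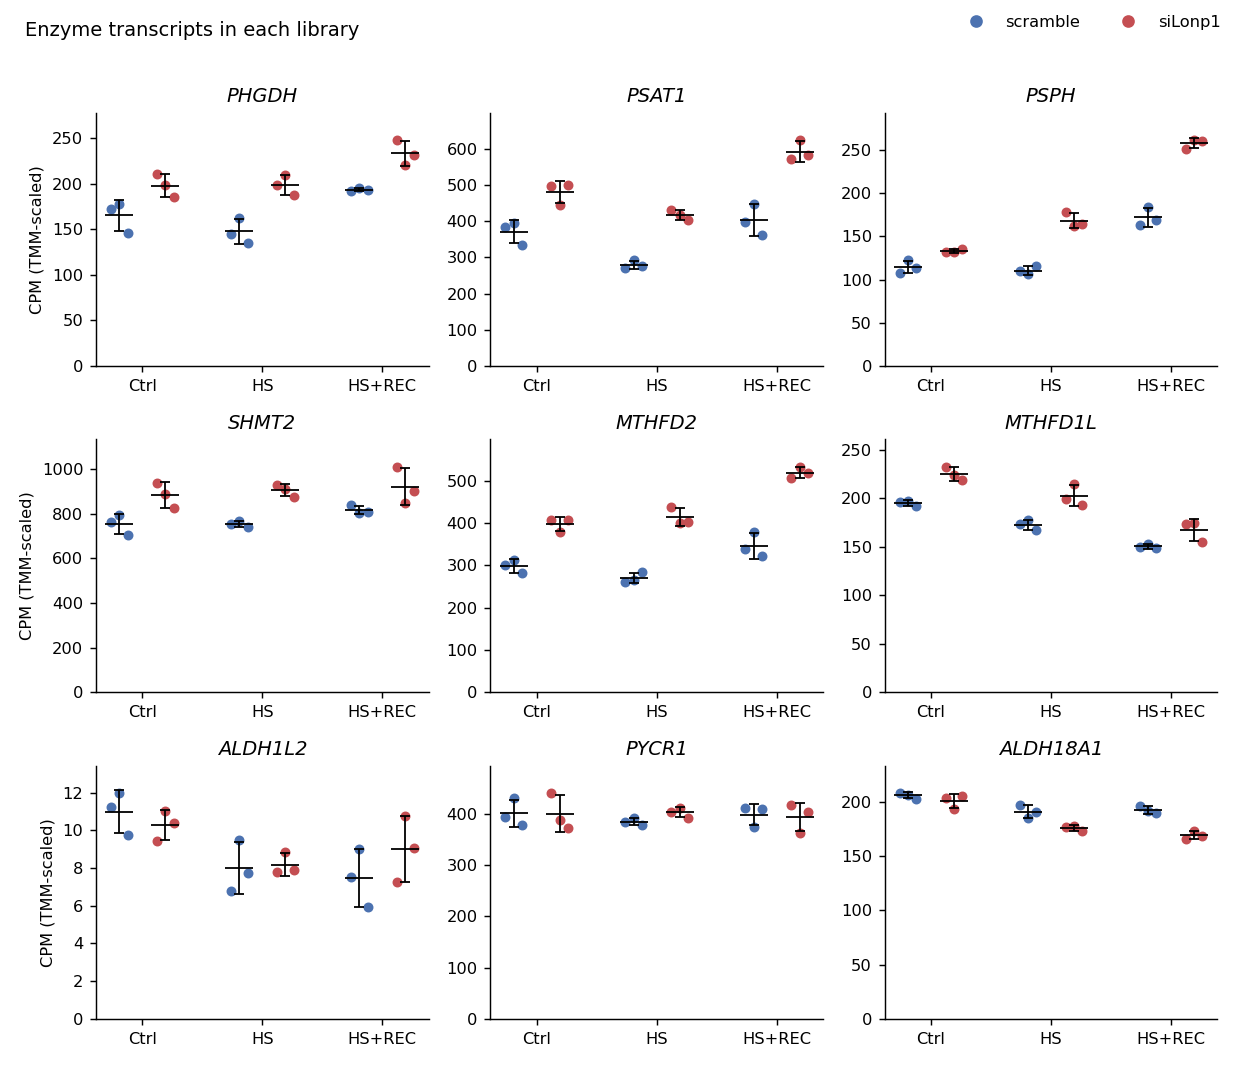
CPM of the 9 enzymes, scaled by TMM, in each of the 18 libraries. Points are libraries, blue for scramble and red for siLonp1, and bars give the mean and SD of 3 libraries. Red points lie above the blue ones in every condition for PHGDH, PSAT1, PSPH, SHMT2, MTHFD2 and MTHFD1L.

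PSAT1 (chr9:78297125-78330093, hg38, plus strand), the aminotransferase of serine synthesis, rose in each condition. In Ctrl its level was 383, 395 and 335 CPM in the scramble libraries and 497, 446 and 499 CPM in the siLonp1 libraries. After HS it was 270.2, 292 and 275 CPM with scramble and 431, 418 and 404 CPM with siLonp1. In HS+REC it was 398, 449 and 362 CPM with scramble and 572, 624 and 582 CPM with siLonp1. In each condition the lowest siLonp1 library lay above the highest scramble library, which held for 33.6% of all genes in Ctrl, 30.4% after HS and 25.6% in HS+REC. PSAT1 rose by 0.37 on the log2 scale in Ctrl (SE 0.07, edgeR adjusted p = 0.000196), by 0.58 in HS (SE 0.07, adjusted p = 6.81e-07) and by 0.56 in HS+REC (SE 0.07, adjusted p = 1.11e-06).

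PSPH (chr7:56011051-56051604, hg38, minus strand), the phosphatase that completes serine synthesis, had a small difference at 37 °C and a larger one in the heated groups. Scramble libraries had 108, 122 and 113 CPM in Ctrl, 109, 106 and 116 CPM in HS and 163, 184 and 169 CPM in HS+REC. The siLonp1 libraries had 131, 131 and 136 CPM in Ctrl, 178, 162 and 164 CPM in HS and 251, 261 and 261 CPM in HS+REC. Each siLonp1 library was above the scramble libraries of its condition, and the HS+REC siLonp1 libraries were the highest of all 18. PSPH rose by 0.22 in Ctrl, 0.61 after HS and 0.58 in HS+REC on the log2 scale (SE 0.06 each, edgeR adjusted p = 0.0051, 2.29e-08 and 3.19e-08). The call in Ctrl did not hold with scaling by total counts only (0.14).

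PHGDH (chr1:119648411-119744218, hg38, plus strand), the enzyme of the first step of serine synthesis, differed by less than PSAT1 and PSPH in HS and HS+REC. Scramble libraries had 173, 178 and 146 CPM in Ctrl, 145, 163 and 135 CPM in HS and 192, 195 and 193 CPM in HS+REC. The siLonp1 libraries had 210.3, 199 and 185 CPM in Ctrl, 199, 210.1 and 187 CPM in HS and 248, 221 and 232 CPM in HS+REC. The siLonp1 and scramble libraries did not overlap in any condition, by a narrow margin in Ctrl. PHGDH rose by 0.26, 0.43 and 0.27 on the log2 scale (SE 0.08 each, edgeR adjusted p = 0.00654, 6.04e-05 and 0.00402), and the call in Ctrl did not hold without replicate 3 of Ctrl scramble (0.18).

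MTHFD2 (chr2:74186172-74217565, hg38, plus strand), the mitochondrial methylenetetrahydrofolate dehydrogenase, was also higher with siLonp1 throughout. The Ctrl libraries had 301, 314 and 282 CPM with scramble and 407, 379.6 and 408 CPM with siLonp1. The HS libraries had 261, 266 and 284 CPM with scramble and 439, 401 and 402 CPM with siLonp1. The HS+REC libraries had 338, 379.6 and 321 CPM with scramble and 507, 533 and 518 CPM with siLonp1. The arms did not overlap in any condition. MTHFD2 rose by 0.42, 0.61 and 0.59 on the log2 scale in Ctrl, HS and HS+REC (SE 0.06 each, edgeR adjusted p = 1.17e-05, 4.33e-08 and 7.56e-08).

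SHMT2 (chr12:57229573-57234935, hg38, plus strand), the mitochondrial serine hydroxymethyltransferase, had a small difference on its high level. Scramble libraries had 764, 793 and 703 CPM in Ctrl, 752, 767 and 738 CPM in HS and 838, 804 and 807 CPM in HS+REC. The siLonp1 libraries had 936, 888 and 824 CPM in Ctrl, 929.6, 911 and 874 CPM in HS and 1009.8, 849 and 900.0 CPM in HS+REC. The arms were apart in each condition, most narrowly in HS+REC. SHMT2 rose by 0.23, 0.27 and 0.17 on the log2 scale (SE 0.06 each, edgeR adjusted p = 0.00464, 0.00115 and 0.026). The call in HS+REC did not hold without replicate 2 of HS+REC scramble (0.16), replicate 3 of HS+REC scramble (0.16) or replicate 1 of HS+REC siLonp1 (0.09) and with scaling by total counts only (0.10) or a fit of only the groups compared (0.17).

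MTHFD1L (chr6:150865679-151101887, hg38, plus strand), the mitochondrial formate-releasing enzyme, was higher with siLonp1 and lower with heat. Scramble libraries had 196, 197 and 192 CPM in Ctrl, 173, 178 and 167 CPM in HS and 150.0, 153 and 148 CPM in HS+REC. The siLonp1 libraries had 232, 224 and 218 CPM in Ctrl, 199, 214 and 193 CPM in HS and 173, 174 and 155 CPM in HS+REC. Within a condition all siLonp1 libraries were above the scramble libraries. MTHFD1L rose by 0.21, 0.23 and 0.15 on the log2 scale (SE 0.06 each, edgeR adjusted p = 0.00413, 0.00151 and 0.0247). The call in HS+REC did not hold without replicate 1 of HS+REC scramble (0.15), replicate 3 of HS+REC scramble (0.14), replicate 1 of HS+REC siLonp1 (0.12) or replicate 2 of HS+REC siLonp1 (0.12) and with scaling by total counts only (0.08), no filter on low counts (0.15) or a fit of only the groups compared (0.16), and that in Ctrl did not hold with scaling by total counts only (0.13).

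ALDH1L2 (chr12:105019784-105107643, hg38, minus strand), the NADPH-yielding folate enzyme, ranged from 5.93 to 12.0 CPM, and its arms overlapped in each condition. The log2 difference was -0.10 (95% interval -0.38 to 0.19) in Ctrl, 0.03 (-0.28 to 0.33) in HS and 0.27 (-0.03 to 0.57) in HS+REC. That in HS+REC passed without replicate 2 of HS+REC scramble (0.42) or replicate 1 of HS+REC siLonp1 (0.41) and with no filter on low counts (0.27), and ranged from 0.13 to 0.42 with 1 library left out. These intervals are wider than those of the other members, and in HS and HS+REC they include differences of the size found for SHMT2.

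The proline enzymes did not share the increase. PYCR1 (chr17:81932384-81942412, hg38, minus strand), the mitochondrial pyrroline-5-carboxylate reductase, ranged from 362 to 440.0 CPM over the 18 libraries. Its log2 difference was -0.00 (95% interval -0.14 to 0.14) in Ctrl, 0.07 (-0.07 to 0.21) in HS and -0.02 (-0.15 to 0.12) in HS+REC, so that an increase as large as that of MTHFD2 lay outside each interval. The arms of PYCR1 overlapped in Ctrl and HS+REC. In HS its siLonp1 libraries (392 to 412 CPM) lay above the scramble libraries (377 to 391 CPM), as for 30.4% of all genes. ALDH18A1 (chr10:95605941-95656711, hg38, minus strand), which starts proline synthesis, had 208, 206 and 203 CPM in the Ctrl scramble libraries and 203, 193 and 205 CPM in the Ctrl siLonp1 libraries. After HS it had 197, 185 and 190.4 CPM with scramble and 177, 177 and 173 CPM with siLonp1. In HS+REC it had 196, 192 and 189 CPM with scramble and 166, 173 and 169 CPM with siLonp1. The arms overlapped in Ctrl and were apart in HS and HS+REC with siLonp1 lower, as for 30.3% and 26.4% of all genes. ALDH18A1 fell by 0.12 on the log2 scale in HS (SE 0.05, edgeR adjusted p = 0.0421) and by 0.18 in HS+REC (SE 0.05, adjusted p = 0.00277), with -0.04 in Ctrl (adjusted p = 0.57). The call in HS did not hold without replicate 1 of HS scramble (-0.10), replicate 1 of HS siLonp1 (-0.12), replicate 2 of HS siLonp1 (-0.13) or replicate 3 of HS siLonp1 (-0.11) and with no filter on low counts (-0.10) or a fit of only the groups compared (-0.12).

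**Figure D2:**
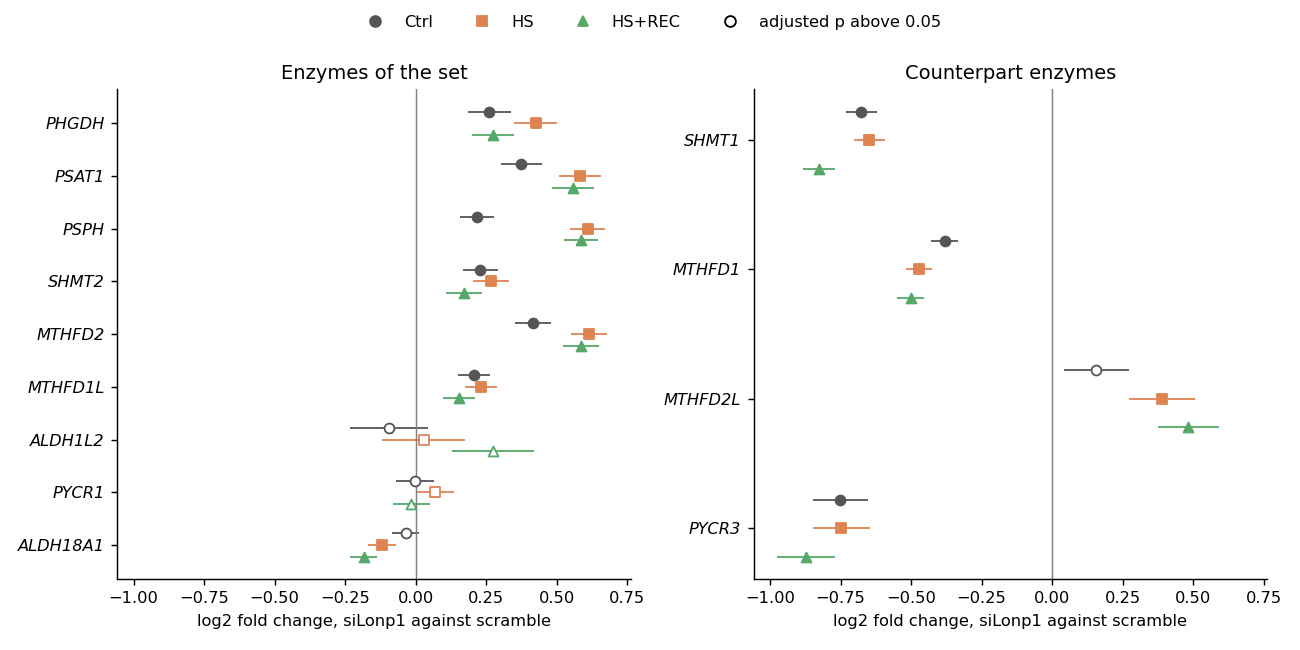
Log2 fold change of siLonp1 against scramble in Ctrl, HS and HS+REC for the 9 enzymes on the left and 4 counterpart enzymes on the right, with bars of 1 standard error and open symbols for an adjusted p above 0.05. PSAT1, PSPH and MTHFD2 lie between 0.56 and 0.61 in HS and HS+REC, whereas SHMT1, MTHFD1 and PYCR3 lie below 0 in all conditions.

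The same reactions run through counterpart enzymes, most of them cytosolic, and 3 of the 4 tested of 5 listed were lower with siLonp1 in each condition (22.9%, 26.7% and 27.3% of all genes), while 0, 1 and 1 were higher (26.3%, 28.1% and 26.8% of all genes), with 0 higher in Ctrl also at an unadjusted p under 0.05 by edgeR. SHMT1, the cytosolic serine hydroxymethyltransferase, averaged 59.0 ± 1.68 CPM in Ctrl scramble and 36.9 ± 0.900 in Ctrl siLonp1, 60.8 ± 2.21 and 38.8 ± 0.497 in HS, and 54.9 ± 0.510 and 30.96 ± 1.71 in HS+REC (SD, n = 3 each). MTHFD1, the cytosolic enzyme of the reactions of MTHFD2 and MTHFD1L, averaged 328 ± 3.47 and 252 ± 2.93 CPM in Ctrl, 326 ± 9.07 and 235 ± 6.32 in HS, and 315 ± 4.25 and 222 ± 5.80 in HS+REC. For both genes the siLonp1 libraries were below all scramble libraries of their condition. SHMT1 fell by 0.68, 0.65 and 0.83 on the log2 scale in Ctrl, HS and HS+REC (edgeR adjusted p = 1.28e-09, 2.49e-09 and 4.51e-11). MTHFD1 fell by 0.38, 0.47 and 0.50 (edgeR adjusted p = 7.42e-07, 2.87e-08 and 1.02e-08). PYCR3, the cytosolic counterpart of PYCR1, listed in the counts as PYCRL, fell by 0.75, 0.75 and 0.87 (edgeR adjusted p = 1.11e-06, 1.63e-06 and 2.28e-07). MTHFD2L, a mitochondrial paralog of MTHFD2, was the exception. It rose by 0.39 in HS and 0.48 in HS+REC (edgeR adjusted p = 0.0073 and 0.000665), with 0.16 in Ctrl (adjusted p = 0.275), at group means of 5.33 to 10.5 CPM. ALDH1L1, the cytosolic counterpart of ALDH1L2, had group means of 0.529 to 0.969 CPM and was not tested.

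Ratios of counts per kb within a library do not depend on library scaling and describe the balance of such pairs, without a test. The ratio of SHMT2 to SHMT1 was 15.6, 15.3 and 13.98 in Ctrl scramble and 29.4, 29.0 and 25.6 in Ctrl siLonp1. After HS it was 14.5, 15.3 and 13.7 with scramble and 28.5, 27.5 and 26.1 with siLonp1. In HS+REC it was 17.8, 17.3 and 17.2 with scramble and 36.0, 32.5 and 35.8 with siLonp1. All siLonp1 libraries were above all scramble libraries. The ratio of MTHFD2 to MTHFD1 was 0.572 to 0.865 over the scramble libraries and 1.09 to 1.72 over the siLonp1 libraries, with no overlap of the arms. The ratio of MTHFD1L to MTHFD1 was 0.430 to 0.556 with scramble and 0.655 to 0.834 with siLonp1. The ratio of MTHFD2 to MTHFD2L was 25.5 to 29.8 in Ctrl scramble and 31.1 to 37.7 in Ctrl siLonp1, 24.7 to 29.1 and 31.7 to 32.2 in HS, and 21.9 to 28.2 and 25.7 to 27.9 in HS+REC. The arms were apart in Ctrl and HS and overlapped in HS+REC. The ratio of PYCR1 to PYCR3 was 21.4 to 23.8 in Ctrl scramble and 33.3 to 42.7 in Ctrl siLonp1, 28.1 to 31.1 and 48.5 to 54.0 in HS, and 31.4 to 38.2 and 60.1 to 67.1 in HS+REC. The arms were apart in each condition, and PYCR3 passed the test with siLonp1 where PYCR1 did not. Such a ratio shows unequal change and not which gene changed.

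**Figure D3:**
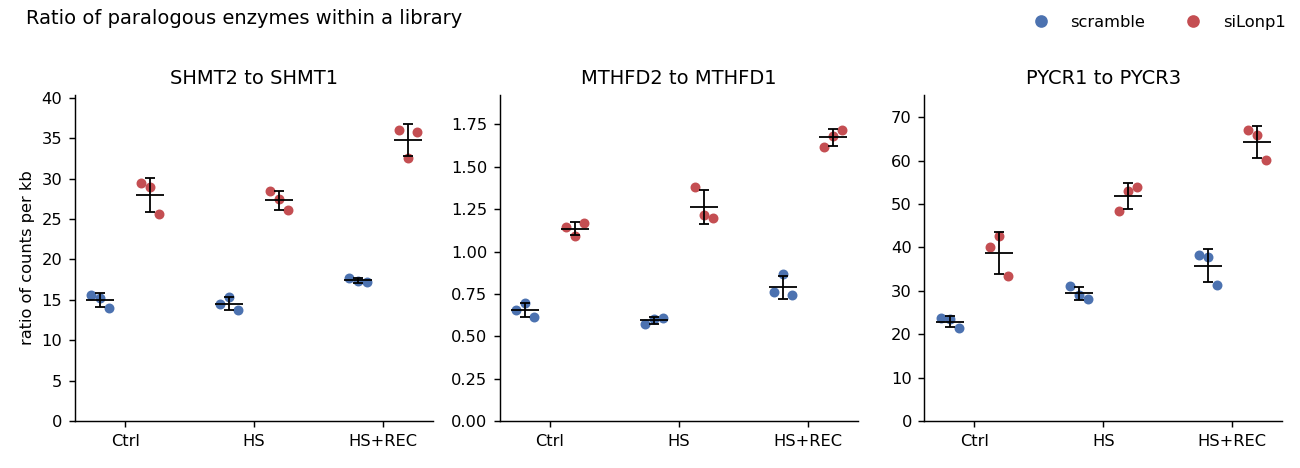
Ratio of counts per kb of SHMT2 to SHMT1, MTHFD2 to MTHFD1 and PYCR1 to PYCR3 in each library, blue for scramble and red for siLonp1, with the mean and SD of 3 libraries. In HS+REC the SHMT2 to SHMT1 ratio is 17.2 to 17.8 with scramble and 32.5 to 36.0 with siLonp1.

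Heat shock lowered a few members in scramble cells and raised none. PSAT1, MTHFD1L and ALDH1L2 were lower in HS than in Ctrl, 3 of 9 members where 17.3% of all genes were lower, and 0 of 9 were higher (18.6% of all genes), also by DESeq2 and with 0 at an unadjusted p under 0.05. PSAT1 fell by 0.41 on the log2 scale (SE 0.07, edgeR adjusted p = 9.99e-05), from 371 ± 31.4 to 279 ± 11.2 CPM, and the groups did not overlap. MTHFD1L fell by 0.18 (SE 0.06, edgeR adjusted p = 0.0167) and ALDH1L2 by 0.45 (SE 0.14, adjusted p = 0.0149). The call on MTHFD1L did not hold without replicate 1 of Ctrl scramble (-0.17), replicate 2 of Ctrl scramble (-0.17) or replicate 3 of HS scramble (-0.13) and with no filter on low counts (-0.17), and that on ALDH1L2 did not hold without replicate 2 of Ctrl scramble (-0.39), replicate 1 of HS scramble (-0.34) or replicate 3 of HS scramble (-0.41). Of the members that did not pass, PHGDH (-0.16) passed as lower without replicate 3 of Ctrl scramble (-0.24) or replicate 2 of HS scramble (-0.24), MTHFD2 (-0.14) with scaling by total counts only (-0.17) and ALDH18A1 (-0.11) with scaling by total counts only (-0.13) or DESeq2 (-0.11). The number of members lower was 1 without Ctrl scramble replicate 2 or HS scramble replicate 3, and 5 with scaling by total counts only.

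In siLonp1 cells the same heat shock left 1 member higher (20.2% of all genes) and 3 lower (22.1%). PSPH rose by 0.34 on the log2 scale (SE 0.06, edgeR adjusted p = 6.6e-05), from 133 ± 2.38 to 168 ± 8.54 CPM. PSAT1 fell by 0.20 (SE 0.07, edgeR adjusted p = 0.0278), MTHFD1L by 0.15 (SE 0.06, adjusted p = 0.0317) and ALDH18A1 by 0.19 (SE 0.05, adjusted p = 0.00255). The call on PSAT1 did not hold without replicate 1 of Ctrl siLonp1 (-0.18), replicate 3 of Ctrl siLonp1 (-0.17), replicate 2 of HS siLonp1 (-0.20) or replicate 3 of HS siLonp1 (-0.18). The call on MTHFD1L did not hold without replicate 1 of Ctrl siLonp1 (-0.13), replicate 2 of Ctrl siLonp1 (-0.16), replicate 1 of HS siLonp1 (-0.14) or replicate 3 of HS siLonp1 (-0.12) and with no filter on low counts (-0.15) or the CPM filter applied to all 18 libraries (-0.13). ALDH1L2 differed by -0.33 and passed with scaling by total counts only (-0.38), no filter on low counts (-0.33) or a fit of only the groups compared (-0.32). The number lower was 1 without Ctrl siLonp1 replicate 1 or HS siLonp1 replicate 3.

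After 1 h of recovery the serine enzymes and MTHFD2 were above their HS levels in both arms. Against HS, 4 of 9 members were higher with scramble (14.2% of all genes) and 4 with siLonp1 (16.3%), and in each arm these were PHGDH, PSAT1, PSPH and MTHFD2. PSPH rose by 0.64 on the log2 scale with scramble and 0.62 with siLonp1 (edgeR adjusted p = 1.99e-08 and 2.18e-08), and PSAT1 by 0.53 and 0.51 (adjusted p = 5.84e-06 and 7.39e-06). MTHFD2 rose by 0.36 and 0.33 (edgeR adjusted p = 0.000137 and 0.000264), and PHGDH by 0.39 and 0.23 (adjusted p = 0.00039 and 0.0192). MTHFD1L was the member that fell, by 0.20 with scramble, where 12.7% of all genes were lower, and by 0.27 with siLonp1 (15.6% of all genes), with edgeR adjusted p = 0.0106 and 0.000521. The call on MTHFD1L with scramble did not hold without replicate 2 of HS scramble (-0.18), which left 0 lower, and that on PHGDH with siLonp1 did not hold without replicate 3 of HS siLonp1 (0.19) or replicate 1 of HS+REC siLonp1 (0.18).

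Against Ctrl, HS+REC left 3 members higher (21.8% of all genes) and 2 lower (20.5%) with scramble, and 4 higher (24.6%) and 2 lower (26.6%) with siLonp1. PSPH rose by 0.59 with scramble and 0.96 with siLonp1 on the log2 scale (SE 0.06 each, edgeR adjusted p = 3.04e-08 and 5.41e-12), or by 50.3% and 94.0%. MTHFD2 rose by 0.21 and 0.38 (edgeR adjusted p = 0.00905 and 2.18e-05), and PHGDH by 0.23 and 0.24 (adjusted p = 0.0189 and 0.0109). PSAT1 rose by 0.30 with siLonp1 (edgeR adjusted p = 0.00127) and differed by 0.12 with scramble (adjusted p = 0.202). MTHFD1L fell by 0.37 and 0.43 (edgeR adjusted p = 9.11e-06 and 1.02e-06), ALDH1L2 by 0.56 with scramble (adjusted p = 0.00266) and ALDH18A1 by 0.25 with siLonp1 (adjusted p = 0.000179). The difference of PSAT1 with scramble ranged from 0.04 to 0.19 with 1 library left out and passed without replicate 3 of HS+REC scramble (0.19), and that of ALDH18A1 with scramble (-0.10) passed with scaling by total counts only (-0.18) or DESeq2 (-0.11). SHMT2 and PYCR1 passed in none of the heat comparisons. With scramble, the call on PHGDH did not hold without replicate 3 of Ctrl scramble (0.14) and with scaling by total counts only (0.14), and that on MTHFD2 did not hold without replicate 3 of Ctrl scramble (0.17) or replicate 2 of HS+REC scramble (0.14) and with scaling by total counts only (0.13), so that 1 member was higher without Ctrl scramble replicate 3 or with scaling by total counts only. With siLonp1, the call on PHGDH did not hold without replicate 3 of Ctrl siLonp1 (0.19) or replicate 1 of HS+REC siLonp1 (0.20) and with scaling by total counts only (0.16). All comparisons with Ctrl in an arm share the same Ctrl libraries.

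**Figure D4:**
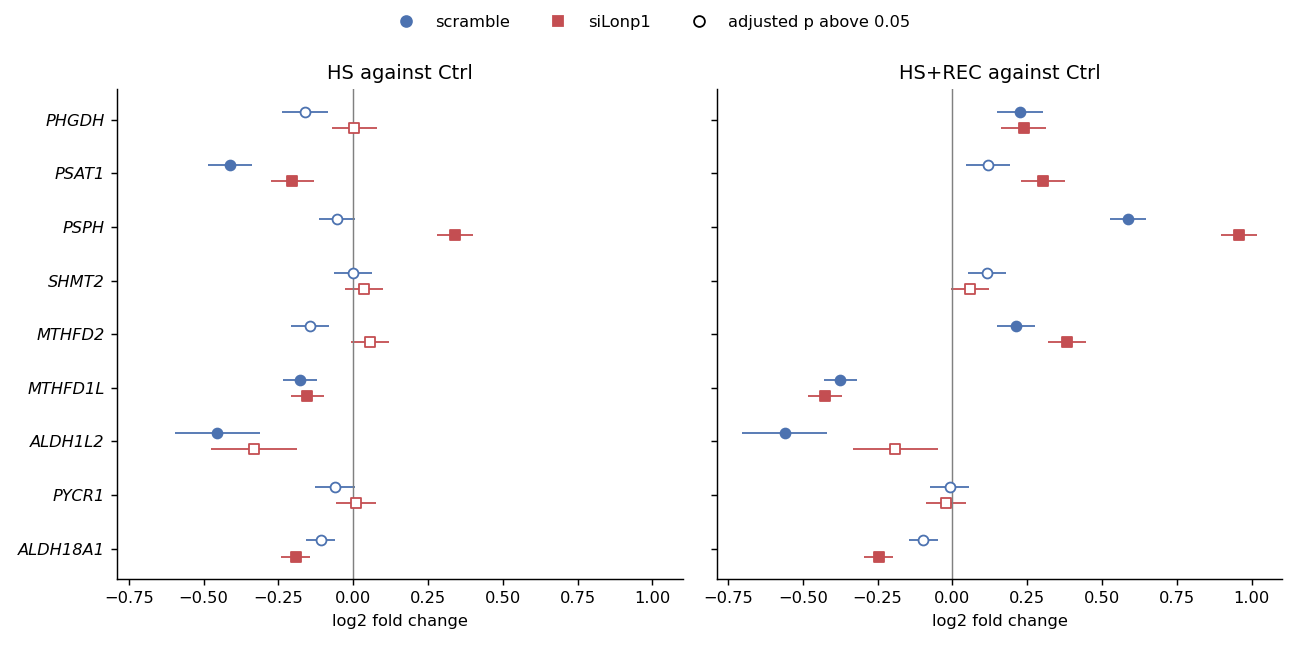
Log2 fold change of HS against Ctrl and of HS+REC against Ctrl for the 9 enzymes, blue circles for scramble and red squares for siLonp1, with bars of 1 standard error and open symbols for an adjusted p above 0.05. PSPH lies at 0.59 with scramble and 0.96 with siLonp1 in HS+REC, and MTHFD1L is below 0 throughout.

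Whether silencing changed the response to heat was tested by the interaction of siLonp1 with heat, and PSPH was the 1 member that passed. Its HS effect was -0.05 in scramble cells and 0.34 in siLonp1 cells, an interaction of 0.39 on the log2 scale (SE 0.09, edgeR adjusted p = 0.017), where 0.475% of all genes passed as higher and 1.39% as lower. For HS+REC the interaction was 0.37 (SE 0.08, edgeR adjusted p = 0.0244), with 0.686% of all genes higher and 0.896% lower. The call for HS did not hold without replicate 2 of Ctrl scramble (0.34), replicate 1 of Ctrl siLonp1 (0.39), replicate 1 of HS scramble (0.39), replicate 2 of HS scramble (0.37) or replicate 1 of HS siLonp1 (0.35), and that for HS+REC did not hold without replicate 2 of Ctrl scramble (0.32), replicate 3 of Ctrl scramble (0.38), replicate 1 of Ctrl siLonp1 (0.36), replicate 2 of Ctrl siLonp1 (0.36) or replicate 1 of HS+REC scramble (0.33), with 0 members left in each case. LONP1 itself was lower in HS siLonp1 than in Ctrl siLonp1 (11.7 and 20.4 CPM) and higher in HS+REC siLonp1 (27.2 CPM), and its part in the result was not tested. The interaction for HS was 0.21 for PSAT1 (95% interval -0.01 to 0.42, edgeR adjusted p = 0.343) and 0.20 for MTHFD2 (0.01 to 0.39, adjusted p = 0.285).

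ATF4 itself, at the level of its transcript, had another pattern than the 6 raised enzymes. It averaged 652 ± 20.9 and 554 ± 11.9 CPM in Ctrl scramble and Ctrl siLonp1, 707 ± 21.0 and 836 ± 30.2 in HS, and 669.7 ± 16.1 and 649.8 ± 30.5 in HS+REC. With siLonp1 it fell by 0.23 in Ctrl (edgeR adjusted p = 0.000658), rose by 0.24 in HS (adjusted p = 0.000411) and differed by -0.04 in HS+REC (adjusted p = 0.495). ASNS, asparagine synthetase and a known ATF4 target, averaged 179.7 ± 25.5 and 340.3 ± 9.81 CPM in Ctrl, 124 ± 12.9 and 325 ± 33.4 in HS, and 166 ± 32.6 and 344 ± 36.4 in HS+REC. It rose with siLonp1 by 0.92, 1.39 and 1.05 on the log2 scale (edgeR adjusted p = 7.55e-07, 1.77e-09 and 8.62e-08). DDIT3, a stress-induced transcription factor, fell with siLonp1 by 0.47 in Ctrl and 0.23 in HS+REC (edgeR adjusted p = 0.00121 and 0.0394), with -0.03 in HS (adjusted p = 0.782). The call on DDIT3 in HS+REC did not hold without replicate 1 of HS+REC scramble (-0.25), replicate 3 of HS+REC scramble (-0.19), replicate 2 of HS+REC siLonp1 (-0.22) or replicate 3 of HS+REC siLonp1 (-0.13) and with a fit of only the groups compared (-0.23). MYC, another known regulator of serine and folate genes, averaged 628 ± 39.0 and 796 ± 34.97 CPM in Ctrl, 748 ± 63.3 and 842 ± 8.83 in HS, and 1111 ± 193 and 896 ± 132 in HS+REC. It rose with siLonp1 by 0.34 in Ctrl (edgeR adjusted p = 0.00558), differed by 0.17 in HS (adjusted p = 0.141) and fell by 0.31 in HS+REC (adjusted p = 0.01). The call on MYC in HS+REC did not hold without replicate 1 of HS+REC scramble (-0.16), replicate 1 of HS+REC siLonp1 (-0.26) or replicate 2 of HS+REC siLonp1 (-0.25) and with a fit of only the groups compared (-0.31). Of 5 other regulators tested of 6 listed, MYC among them, 2 were higher and 1 lower with siLonp1 in Ctrl (26.3% and 22.9% of all genes), 1 and 2 in HS (28.1% and 26.7%), and 1 and 3 in HS+REC (26.8% and 27.3%).

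Among 18 genes of the ATF4 program the siLonp1 effect was mixed at 37 °C. There 6 were higher and 7 lower (26.3% and 22.9% of all genes), against 9 and 1 in HS (28.1% and 26.7%) and 11 and 2 in HS+REC (26.8% and 27.3%), with medians of -0.05, 0.21 and 0.28 on the log2 scale. ASNS was higher in each condition, as given above. SESN2, a stress-induced inhibitor of mTORC1, fell by 1.02 in Ctrl (edgeR adjusted p = 3.95e-07), VLDLR by 0.55 in HS (adjusted p = 0.000708) and NUPR1 by 0.71 in HS+REC (adjusted p = 0.000677). VLDLR rose by 0.26 in HS+REC (edgeR adjusted p = 0.0314), a call that did not hold without replicate 1 of HS+REC scramble (0.24), replicate 3 of HS+REC scramble (0.20) or replicate 2 of HS+REC siLonp1 (0.15) and with scaling by total counts only (0.19) or a fit of only the groups compared (0.26). With scramble, heat raised 11 and lowered 5 of 18 in HS (18.6% and 17.3% of all genes) and raised 12 and lowered 1 in HS+REC (21.8% and 20.5%). With siLonp1 it raised 12 and lowered 2 in HS (20.2% and 22.1%) and raised 15 and lowered 1 in HS+REC (24.6% and 26.6%). DDIT4 rose by 3.92 with HS in scramble and 4.73 in siLonp1 cells (edgeR adjusted p = 3.99e-15 and 1.72e-16), and CHAC1, which degrades glutathione, by 3.24 and 4.32 (adjusted p = 5.04e-15 and 5.49e-17). FGF21, a secreted stress hormone, was too low in Ctrl for a reliable fold change, although it is counted above as higher with siLonp1 and with heat. It had 1, 3 and 0 counts in the Ctrl scramble and 4, 5 and 5 in the Ctrl siLonp1 libraries, 5, 9 and 6 and 18, 14 and 20 in HS, and 38, 35 and 33 and 101, 76 and 71 in HS+REC. FGF21 passed the CPM filter only through the HS+REC siLonp1 libraries, so its calls as higher in that group are partly set by the filter. Its siLonp1 call in Ctrl, counted above as higher, did not hold without replicate 1 of Ctrl scramble (1.72), replicate 3 of Ctrl scramble (1.33), replicate 2 of Ctrl siLonp1 (1.80) or replicate 3 of Ctrl siLonp1 (1.78) on the log2 scale.

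The other genes of folate and glycine metabolism were more often lower than higher with siLonp1. Of 19 tested of 20 listed, 2 were higher and 11 lower in Ctrl (26.3% and 22.9% of all genes), 1 and 11 in HS (28.1% and 26.7%), and 2 and 9 in HS+REC (26.8% and 27.3%), with medians of -0.25, -0.25 and -0.17. SFXN2, of the sideroflexin family of mitochondrial carriers, fell by 0.68, 0.63 and 0.71 (edgeR adjusted p = 2.21e-08, 8.25e-08 and 1.36e-08). MTFMT, which formylates the mitochondrial initiator tRNA with a folate carbon unit, fell by 0.55 in HS and 0.53 in HS+REC (edgeR adjusted p = 1.18e-06 and 1.77e-06). SLC19A1, a folate transporter, fell by 0.61 and 0.52 (edgeR adjusted p = 9.25e-07 and 9.71e-06), and in Ctrl GCAT fell by 0.48 and MTRR by 0.44 (adjusted p = 0.000201 and 3.55e-06). Heat shock raised 0 of 19 by edgeR in either arm (0 with scramble and 1 with siLonp1 at an unadjusted p under 0.05) and lowered 7 with scramble and 8 with siLonp1, where 17.3% and 22.1% of all genes were lower and 18.6% and 20.2% higher. HS+REC raised 1 and lowered 8 with scramble (21.8% and 20.5% of all genes) and raised 1 and lowered 10 with siLonp1 (24.6% and 26.6%). SLC25A32, the mitochondrial folate carrier, had the largest of these falls in HS, from 46.2 ± 2.40 to 24.7 ± 1.301 CPM with scramble (log2 difference -0.91, edgeR adjusted p = 1.3e-09) and from 60.8 ± 2.92 to 26.7 ± 1.65 with siLonp1 (-1.19, adjusted p = 7.76e-12). MTR, methionine synthase, fell by 0.38 in HS+REC with scramble (edgeR adjusted p = 0.000155).

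Of 10 genes of proline and glutamate metabolism, 2 were higher and 3 lower with siLonp1 in each condition, near the shares of all genes (26.3%, 28.1% and 26.8% higher and 22.9%, 26.7% and 27.3% lower). ASS1, of arginine synthesis, averaged 72.3 ± 10.6 and 157 ± 7.23 CPM in Ctrl, 52.1 ± 4.29 and 149.8 ± 16.1 in HS, and 53.4 ± 4.77 and 128 ± 14.1 in HS+REC. It rose by 1.11, 1.52 and 1.26 (edgeR adjusted p = 4.03e-09, 2.97e-11 and 5.49e-10), and ARG2, mitochondrial arginase, rose by 0.62, 0.77 and 0.73 (adjusted p = 1.09e-06, 4.03e-08 and 6.07e-08). PRODH, which degrades proline, fell by 0.78 in HS and 0.98 in HS+REC (edgeR adjusted p = 0.000667 and 0.000183) at group means of 0.822 to 2.17 CPM, and PRODH2 fell by 0.75 in Ctrl (adjusted p = 0.000389). With heat, 0 of the 10 were higher and 1 lower in HS with scramble (18.6% and 17.3% of all genes), 1 and 0 with siLonp1 (20.2% and 22.1%), 1 and 2 in HS+REC with scramble (21.8% and 20.5%), and 1 and 4 with siLonp1 (24.6% and 26.6%). At an unadjusted p under 0.05 by edgeR, 0 were higher in HS with scramble and 1 lower in HS with siLonp1. GOT2, mitochondrial aspartate aminotransferase, was among those lower in HS+REC with scramble (-0.12, edgeR adjusted p = 0.0408), a call that did not hold without replicate 1 of Ctrl scramble (-0.12), replicate 2 of Ctrl scramble (-0.12), replicate 3 of Ctrl scramble (-0.12), replicate 1 of HS+REC scramble (-0.11), replicate 2 of HS+REC scramble (-0.12) or replicate 3 of HS+REC scramble (-0.13) and with no filter on low counts (-0.12), the CPM filter applied to all 18 libraries (-0.10) or a fit of only the groups compared (-0.11). GOT2 was also among the 3 counted above as lower with siLonp1. Its Ctrl call (-0.12) failed in all 6 fits with 1 library left out. Its HS+REC call (-0.12) failed in 3 of 6 such fits and with a fit of only the groups compared (-0.12). The HS call (-0.15) held with any 1 library left out. With no filter on low counts none of these siLonp1 calls held (-0.10 for Ctrl, -0.14 for HS and -0.12 for HS+REC).

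Of 9 genes of amino acid transport, methionine and transsulfuration, 4 were higher and 1 lower with siLonp1 in Ctrl (26.3% and 22.9% of all genes), 4 and 0 in HS (28.1% and 26.7%), and 5 and 0 in HS+REC (26.8% and 27.3%). Lower at an unadjusted p under 0.05 by edgeR were 0 in HS and 1 in HS+REC. CBS, which condenses serine with homocysteine, rose by 0.79, 1.00 and 0.84 (edgeR adjusted p = 2.21e-05, 1.89e-06 and 1.74e-05) at group means of 2.71 to 6.37 CPM. SLC1A4, a serine and alanine transporter, rose by 0.54 in HS and 0.61 in HS+REC (edgeR adjusted p = 2.48e-06 and 2.82e-07), and CTH, which acts after CBS, fell by 0.53 in Ctrl (adjusted p = 0.00041). SLC6A9, a glycine transporter, rose by 0.40 in HS (edgeR adjusted p = 0.00999), a call that did not hold without replicate 3 of HS scramble (0.23). Heat raised 1 and lowered 3 in HS in each arm, where 18.6% and 17.3% of all genes did so with scramble and 20.2% and 22.1% with siLonp1. In HS+REC it raised 3 and lowered 3 with scramble (21.8% and 20.5% of all genes) and raised 2 and lowered 2 with siLonp1 (24.6% and 26.6%). MAT2A, which makes S-adenosylmethionine, fell by 1.26 with scramble and 1.84 with siLonp1 in HS (edgeR adjusted p = 9.1e-10 and 1.14e-12), and SLC38A1 by 0.45 and 0.60 (adjusted p = 0.00147 and 5.57e-05). SLC38A2, a stress-induced transporter of neutral amino acids, rose by 1.86 and 2.33 in HS+REC (edgeR adjusted p = 1.27e-13 and 1.87e-15).

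**Figure D5:**
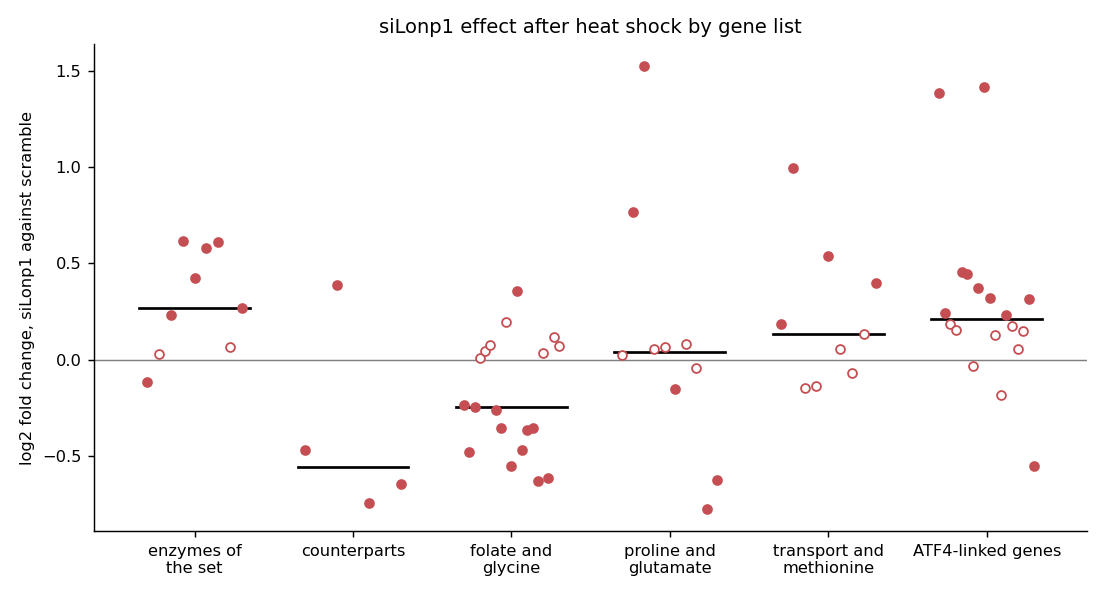
Log2 fold change of siLonp1 against scramble in HS for the 9 enzymes and for the genes of related lists. Each point is a gene, filled where it passed the test and open where it did not, and bars are medians. The median is 0.27 for the enzymes, -0.56 for the counterparts and -0.25 for folate and glycine.

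Correlations of log2 CPM between members are given as descriptions over the 18 libraries, which share the treatments. Of 36 pairs, 11 had r above 0.5 and 9 had r below 0. PSAT1 and MTHFD2 were the closest pair, at 0.94 over the libraries and 0.86 once group means were removed. PHGDH and SHMT2 were also close in both ways (0.88 and 0.79), whereas PHGDH and PSPH were close over the libraries and not within groups (0.82 and -0.19). PYCR1 and SHMT2 followed each other within groups (0.85) more than over the libraries (0.49). ALDH18A1 ran against PSPH over the libraries (-0.78) and not within groups (0.13).

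Among all other genes tested, those most like the mean profile of the 9 members over the 18 libraries were PRNP, UNC5B, ANKH, CABLES2 and GRB10, with r between 0.91 and 0.92. Over the 6 group means they were RPL36AL, PDE6D, PDCD10, MED21 and MRAS, with r between 0.99 and 1.00. For single members over the 18 libraries, the nearest gene was MARS for PHGDH (r = 0.95) and TARS for PSPH (0.98), both of which encode aminoacyl-tRNA synthetases. It was CKAP4 for PSAT1 (0.98), GPN1 for MTHFD2 (0.99), LAMC3 for SHMT2 (0.93), IFFO2 for MTHFD1L (0.97) and MFN1 for ALDH18A1 (0.96). ALDH4A1, which oxidizes pyrroline-5-carboxylate, was nearest to PYCR1 (0.84), and HTR7P1 to ALDH1L2 (0.82).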

How the data were processed

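RNAseq counts of 18 SW620 libraries were analysed. Per the labels and methods, the authors made stranded, paired-end mRNA libraries, aligned the reads to hg38 with STAR 2.7.3a and counted them on UCSC genes with featureCounts, with R 3.6.3, and deposited raw counts. The strand setting, the handling of shared reads and the annotation release are not given in the sources used here. The methods state independent biological replicates. Here edgeR 4.0.16 in R 4.3.3 was used, with TMM factors (0.934 to 1.06), a filter of CPM above 1 in 3 or more libraries, the quasi-likelihood test in 1 model over 18 libraries (common biological coefficient of variation 0.0658), Benjamini-Hochberg adjustment and a limit of 0.05. Prior counts were 0.125 for fold changes and 2 for log2 CPM, and CPM are TMM-scaled. Positions and lengths are from GENCODE. The scripts were tested on simulated data. Members and lists were chosen with earlier results of these data known. Named genes are the members, LONP1, ATF4, DDIT3, ASNS, MYC, the counterparts, and per list and comparison up to 3 genes with the largest change past the limit. Alternatives were RLE size factors, total counts only, 2 other filters, DESeq2 1.42.0, only the groups compared, a replicate block, and each library left out. Values cover counting and replicate error only. The table held 0 columns of other samples. Of 6 counterparts first listed, 1 is not reported here.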

Additional observations from a re-analysis of the deposited data

Results flagged for a closer look

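The effect of heat differed between siLonp1 and scramble cells for some of the genes named, by edgeR's quasi-likelihood test of the interaction with Benjamini-Hochberg adjustment. For HS the interaction on the log2 scale was 0.39 (adjusted p = 0.017) for PSPH, -0.76 (adjusted p = 0.000468) for LONP1, 0.48 (adjusted p = 0.000907) for ATF4 and -0.58 (adjusted p = 0.0375) for MAT2A by edgeR. It was 0.84 (adjusted p = 0.00537) for SESN2, 1.02 (adjusted p = 0.0199) for NUPR1 and 1.08 (adjusted p = 0.00497) for CHAC1 by edgeR. For HS+REC it was 0.37 (adjusted p = 0.0244) for PSPH, 0.43 (adjusted p = 0.0321) for LONP1, -0.65 (adjusted p = 0.0147) for MYC, 0.89 (adjusted p = 0.00374) for SESN2 and 0.67 (adjusted p = 0.0262) for VLDLR by edgeR. Under the omission of single libraries the calls on ATF4, SESN2 and CHAC1 and the HS call on LONP1 held throughout. That on MYC did not hold without replicate 3 of Ctrl scramble (-0.62), and that on NUPR1 did not hold without replicate 2 of Ctrl scramble (0.95), replicate 2 of Ctrl siLonp1 (0.97), replicate 3 of Ctrl siLonp1 (0.96), replicate 1 of HS scramble (1.02) or replicate 1 of HS siLonp1 (0.96). The HS+REC call on VLDLR did not hold without replicate 1 of Ctrl scramble (0.69), replicate 2 of Ctrl scramble (0.61), replicate 1 of Ctrl siLonp1 (0.63), replicate 3 of Ctrl siLonp1 (0.62), replicate 1 of HS+REC scramble (0.65) or replicate 2 of HS+REC siLonp1 (0.56). The HS+REC call on LONP1 did not hold without replicate 1 of Ctrl scramble (0.42), replicate 2 of Ctrl scramble (0.41), replicate 3 of Ctrl scramble (0.45), replicate 1 of Ctrl siLonp1 (0.39), replicate 3 of Ctrl siLonp1 (0.39), replicate 1 of HS+REC scramble (0.45), replicate 2 of HS+REC scramble (0.36), replicate 1 of HS+REC siLonp1 (0.42) or replicate 3 of HS+REC siLonp1 (0.38) and with a fit of only the groups compared (0.42). The call on MAT2A did not hold without replicate 1 of Ctrl scramble (-0.58), replicate 2 of Ctrl scramble (-0.58), replicate 3 of Ctrl scramble (-0.57), replicate 1 of Ctrl siLonp1 (-0.59), replicate 2 of Ctrl siLonp1 (-0.59), replicate 3 of Ctrl siLonp1 (-0.55), replicate 1 of HS scramble (-0.57), replicate 2 of HS scramble (-0.56), replicate 1 of HS siLonp1 (-0.60), replicate 2 of HS siLonp1 (-0.57) or replicate 3 of HS siLonp1 (-0.57). The libraries that decide the calls on PSPH are given with its values above.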

How the results depend on the processing

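The count of 6 members higher with siLonp1 in all 3 conditions was 3 with scaling by total counts only, 5 with no filter on low counts, 4 with only the groups compared and 4 to 6 with 1 library left out. Scaling by total counts only shifted the median of all genes by at most -0.10 on the log2 scale, and gave 5 members lower in HS and 1 higher in HS+REC with scramble, the cause of which was not tested. The 1 member lower with siLonp1 in HS (ALDH18A1) became 0 with no filter, with only the groups compared and with the replicate block. Leaving out 1 library gave 1 to 4 members lower in HS with scramble, 1 to 2 lower in HS with siLonp1, 1 to 4 higher in HS+REC with scramble, 0 to 1 lower in HS+REC against HS with scramble, 0 to 1 lower with siLonp1 in HS and 0 to 1 for each interaction. All other counts of members stayed within 1.5 times under all these settings.

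The values that changed sign were all of comparisons that did not pass. With scaling by total counts only they were -0.044 for PHGDH in HS with siLonp1, -0.012 for SHMT2 in HS with siLonp1, -0.039 for PYCR1 in HS with siLonp1, -0.021 for SHMT2 in HS+REC with siLonp1, -0.0063 for PYCR1 in HS+REC against HS with scramble, -0.045 for ALDH18A1 in HS+REC against HS with scramble, -0.0089 for SHMT2 in HS+REC against HS with siLonp1, -0.070 for ALDH1L2 in the siLonp1 effect in HS and -0.030 for PYCR1 in the siLonp1 effect in HS. With no filter they were 0.0056 for SHMT2 in HS with scramble, -0.00085 for SHMT2 in HS+REC against HS with siLonp1, 0.014 for PYCR1 in the siLonp1 effect in Ctrl and -0.0064 for PHGDH in the HS+REC interaction. With the CPM filter in all 18 libraries they were 0.022 for SHMT2 in HS with scramble and 0.0065 for PYCR1 in HS+REC with scramble, and with only the groups compared 0.014 for SHMT2 in HS with scramble, 0.0018 for PYCR1 in HS+REC with scramble and 0.0032 for PYCR1 in HS+REC with siLonp1. RLE size factors gave 0.0039 for PYCR1 in the HS+REC interaction, and DESeq2 gave 0.0039 for PYCR1 in the HS+REC interaction. With 1 library left out, the log2 difference of SHMT2 ranged from -0.049 to 0.037 in HS with scramble, -0.0100 to 0.085 in the HS interaction, -0.012 to 0.080 in HS with siLonp1, -0.061 to 0.078 in HS+REC against HS with siLonp1 and -0.011 to 0.11 in HS+REC with siLonp1. For PHGDH it ran from -0.042 to 0.096 in the HS+REC interaction and -0.042 to 0.049 in HS with siLonp1. For PYCR1 it ran from -0.049 to 0.043 in HS+REC with scramble, -0.077 to 0.050 in the siLonp1 effect in Ctrl, -0.066 to 0.061 in the HS+REC interaction, -0.073 to 0.052 in HS+REC with siLonp1, -0.041 to 0.084 in HS with siLonp1, -0.063 to 0.041 in the siLonp1 effect in HS+REC and -0.084 to 0.025 in HS+REC against HS with siLonp1. For ALDH1L2 it ran from -0.083 to 0.18 in the siLonp1 effect in HS, -0.26 to 0.043 in HS+REC against HS with scramble and -0.0061 to 0.27 in HS+REC against HS with siLonp1. For ALDH18A1 it ran from -0.0094 to 0.034 in HS+REC against HS with scramble. For MTHFD1L it ran from -0.020 to 0.056 in the HS interaction and -0.084 to 0.0023 in the HS+REC interaction.

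Same-numbered libraries of different groups did not deviate together: over 45 pairs the correlation of deviations ran from -0.38 to 0.46 (median -0.02), 10 were over 0.1, and 6 of 18 libraries were closest to their own number. With the number as a replicate block, ALDH18A1 differed with siLonp1 in HS by -0.12 (edgeR adjusted p = 0.055) and ALDH1L2 passed in HS with siLonp1 (-0.33) and with siLonp1 in HS+REC (0.27), and no other member's call changed. Of the other genes, the block also ended the calls on GOT2 in HS+REC with scramble (-0.12, edgeR adjusted p = 0.0552), on the HS interaction of MAT2A (-0.58, edgeR adjusted p = 0.0589) and on the HS+REC interaction of LONP1 (0.43, edgeR adjusted p = 0.0557). It ended as well those on GOT2 with siLonp1 in Ctrl (-0.12, edgeR adjusted p = 0.0544) and on SHMT1 in HS+REC against HS with scramble (-0.15, edgeR adjusted p = 0.0653). ALDH1L2 had fewer counts than any other member, from 244 in HS scramble replicate 3 to 569 in Ctrl scramble replicate 2. The part of depth in its wide intervals was not tested.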
